A study of Mus musculus with 6 samples.

Results

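The genes described here are 10 immediate early genes that neurons switch on after stimulation: the zinc finger factors Egr1, Egr2, Egr3 and Egr4, the orphan nuclear receptors Nr4a1, Nr4a2 and Nr4a3, and Ier2, Arc and Npas4. They were listed by name, without a measured value in the rule, and are 10 of 21938 protein-coding genes. Peaks of acetylation of histone H3 at lysine 27 (H3K27ac) were assigned to them if they overlapped a promoter, the 2.5 kb before and after any transcription start site (TSS), or the locus, the gene body with 20 kb on either side. The data were 6 peak lists from whole retinas of wild-type mice, aged 3 months at the first treatment. In the 4xIOP group (n = 3) the intraocular pressure of one eye had been raised to 30 mmHg for 1 h on 4 occasions, and the untreated fellow eye gave the control group (n = 3). Retinas were taken 2 days after the fourth elevation, 1 retina per sample. A treatment text shared with other samples of the study also describes dasatinib or vehicle injections, and the labels do not say whether these mice received either. The comparison asks whether repeated mild pressure elevation alters this mark in young retina.

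Immediate early genes are transcribed within minutes of a stimulus without new protein synthesis. Serum response factor bound to CArG boxes and CREB bound to cAMP response elements (CRE) are the classical activators of their promoters. The EGR and NR4A proteins and NPAS4 are transcription factors that pass the signal on to later genes, while ARC is a cytoskeletal protein of synapses. H3K27ac is deposited by p300 and CBP at active promoters and enhancers, and it reports chromatin state and not transcript amount.

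In 4 of the 6 samples the deposited list is named for the opposite group, namely replicates 1 and 2 of control and of 4xIOP. The samples were kept as labelled, and directions were also computed from control replicate 3 and 4xIOP replicate 3 alone, in which name and label are the same. Control replicate 3 stood apart with 36509 peaks, against 16195 to 21893 in the other lists, and its median promoter signal was 28.8 times the genome mean background, against 10.9 to 16.9. Signal is given as fragments at the peak summit, as multiples of the genome mean background of the same list, which was 2.01 to 3.38 fragments. The least fragments of any called peak were 9 to 12. Rod markers were marked in all lists, at 5 or 6 of 6 promoters, while amacrine and horizontal, microglial, endothelial and lens markers had 0 marked promoters in every list and ganglion cell markers 0 or 1 of 3. Bipolar and Müller cell markers were marked at 1 to 3 and 1 to 2 of 3 promoters. Of 2 skeletal muscle markers, 1, 1 and 2 were marked in control and 0, 2 and 0 in 4xIOP, and 1 liver, 1 cone and 1 pigment epithelium marker were marked in control replicate 3 alone. The part of other tissue in the results was not tested. In whole retina, fewer cells of a type and less acetylation per cell cannot be told apart.

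Promoter sequence is shown for a pair of genes that carried a promoter peak in all 6 lists (Nr4a1, Nr4a2) and a pair that carried none (Egr2, Egr4), to set the sequence of marked and unmarked promoters side by side. Each run is the 250 bases before the RefSeq start (GRCm38.p6), 5′ to 3′ on the gene's strand, and holds no GENCODE exon. Capitals mark matches on either strand to the CArG box, the CRE half-site TGACG or the TATA motif TATAAA. The windows are chr15:101266596-101266845 (plus strand, Nr4a1), chr2:57124004-57124253 (minus strand, Nr4a2), chr10:67537619-67537868 (plus strand, Egr2) and chr6:85513590-85513839 (minus strand, Egr4).
Nr4a1: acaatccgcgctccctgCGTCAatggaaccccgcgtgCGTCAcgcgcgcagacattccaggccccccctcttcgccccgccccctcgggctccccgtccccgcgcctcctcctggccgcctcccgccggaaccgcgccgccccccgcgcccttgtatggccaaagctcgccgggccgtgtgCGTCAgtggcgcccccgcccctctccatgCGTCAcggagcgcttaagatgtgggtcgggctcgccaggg
Nr4a2: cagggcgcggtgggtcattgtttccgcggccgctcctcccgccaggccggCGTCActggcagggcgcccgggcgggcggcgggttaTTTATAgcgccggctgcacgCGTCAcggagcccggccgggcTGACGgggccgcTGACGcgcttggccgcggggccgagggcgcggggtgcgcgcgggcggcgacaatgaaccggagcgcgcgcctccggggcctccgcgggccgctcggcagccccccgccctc
Egr2: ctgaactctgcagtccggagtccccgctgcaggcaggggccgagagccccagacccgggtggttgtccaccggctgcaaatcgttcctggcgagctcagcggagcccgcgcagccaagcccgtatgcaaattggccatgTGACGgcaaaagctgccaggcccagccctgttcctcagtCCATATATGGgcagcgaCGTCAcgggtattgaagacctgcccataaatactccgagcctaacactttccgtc
Egr4: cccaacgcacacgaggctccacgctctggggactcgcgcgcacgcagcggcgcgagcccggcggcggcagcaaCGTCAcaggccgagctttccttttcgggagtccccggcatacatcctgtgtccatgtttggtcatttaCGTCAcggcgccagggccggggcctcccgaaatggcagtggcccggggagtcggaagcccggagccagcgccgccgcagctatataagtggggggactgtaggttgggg

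RefSeq windows were present for 6 of the 10 genes, the 4 above with Nr4a3 and Npas4. Egr1, Egr3, Ier2 and Arc had no entry. All 6 held a CRE half-site in at least 1 window, as did 19.8% of the 27025 genes whose windows were searched, a share not matched for CpG content. Egr2 had several windows, and those starting at 67535249 and 67537316 held no half-site. The window of Npas4 lies wholly in an exon, and its RefSeq start is 345 bp from the nearest GENCODE TSS. The printed windows of Nr4a1 and Nr4a2 held 4 matches each and those of Egr2 and Egr4 held 2 each. The CArG box was matched in Egr2 alone, at position -72 of the printed window (position -1 is the base before the start), against 1.62% of all genes. The full CRE TGACGTCA, which contains the half-site on both strands, the EGR site GCGTGGGCG and the NR4A monomer site AAAGGTCA had 0 matches in the 6 genes, against 1.77%, 0.622% and 1.55% of all genes. TATAAA was matched in Nr4a2 alone, against 14.3%. CpG dinucleotides were dense in the printed windows, with 34 in Nr4a1, 44 in Nr4a2, 17 in Egr2 and 28 in Egr4, against a median of 6. Both unmarked promoters thus held more CpG than the median window and the same half-site as the marked ones. A match is a description of the letters and not a bound site.

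Promoter marking ranged from all lists to none among the 10 genes. Nr4a1, Nr4a2, Nr4a3 and Ier2 had a promoter peak in all 6 lists, Egr1 in 5, Egr3 in 4, Arc and Npas4 in 3, and Egr2 and Egr4 in 0. Of all coding genes, 39.5% were marked in all 6 lists, 57.6% in at least 1 and 42.4% in none. Thus the 4 of 10 marked everywhere are near the share of all genes, and the 8 of 10 marked at least once are above it. Per list, 7, 6 and 8 of the 10 genes were marked in control, and 5, 6 and 7 were marked in 4xIOP, in the order of the replicates, which is kept for all values below. The means were 7 ± 1 and 6 ± 1 (SD, n = 3), a difference of 1 gene, which is no larger than the spread within either group. Without control replicate 3 the difference was -0.5, and with −log10 q of at least 5 it was -2.33, from 5, 6 and 8 genes in control and 3, 5 and 4 in 4xIOP.

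**Figure D1:**
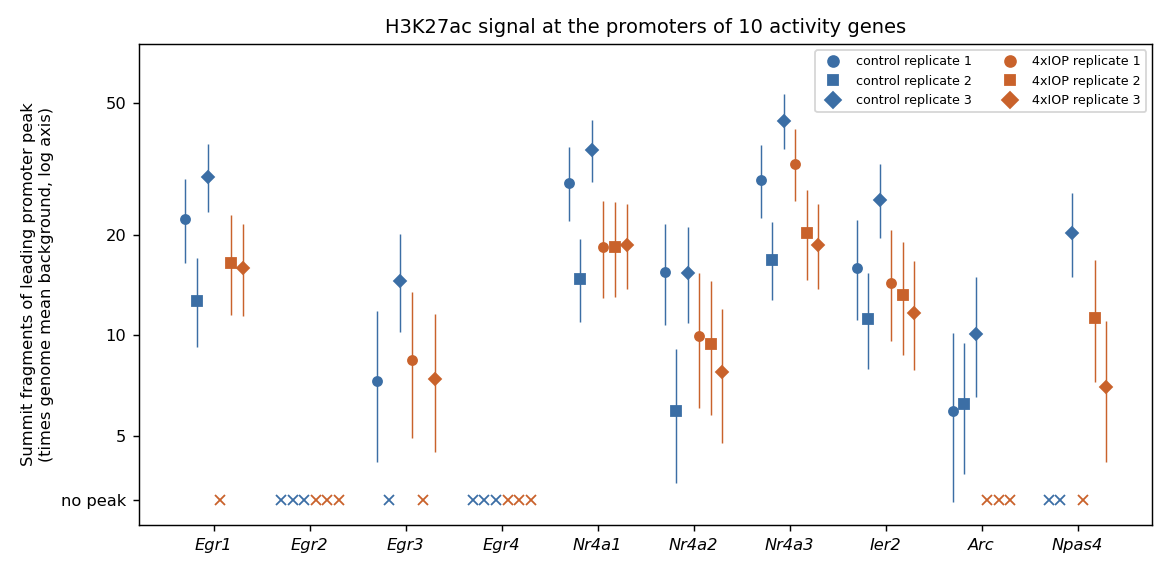
Summit fragments of the leading promoter peak as multiples of the genome mean background (log axis) for the 10 genes, with 1 symbol per list; vertical lines are 95% Poisson intervals of the fragment count and crosses mark lists with no promoter peak. Nr4a3 reached 44.1 in control replicate 3, and Egr2 and Egr4 have crosses in all 6 lists.

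Among the genes marked in all lists, Nr4a3 had the highest median signal, from a peak near the upstream edge of the promoter window. Its leading peak held 64, 57 and 109 fragments in control and 66, 43 and 48 in 4xIOP. Control replicate 3 was the highest, the other 5 lists overlapped, and the median was 24.7 times the genome mean. Nr4a3 ranked above Ier2 and Nr4a2 in all 6 lists and above Nr4a1 in 5 of 6, with an equal count in 4xIOP replicate 3, so that the first 2 places are not separated in every list. Nr4a1 ranked above Egr1 in all 5 lists with both, Egr1 above Ier2 in all 5, and Ier2 above Nr4a2 in all 6. By median signal, in multiples of the genome mean, the genes ran from Nr4a3 through Nr4a1 (18.6), Egr1 (16.5), Ier2 (13.8), Npas4 (11.3), Nr4a2 (9.69) and Egr3 (7.93) to Arc (6.21), where Npas4 and Arc rest on 3 lists and Egr3 on 4. Npas4 and Nr4a2 were in this order in 2 of the 3 lists with both, as were Nr4a2 and Arc, so the order of these genes is not fixed.

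Promoter marking varied more within the EGR family than within the NR4A family. EGR proteins bind GC-rich sites through 3 zinc fingers, and Egr1 is the member most often used as a marker of neuronal activation. Egr1 (ENSMUSG00000038418.7, chromosome 18, 34859823 to 34864984, plus strand) had promoter peaks in 5 lists, whose leading summits held 49, 43 and 74 fragments in control and, for 4xIOP replicates 2 and 3, 35 and 41. There was no peak in 4xIOP replicate 1. In 4 of the 5 lists the summit lay at -121 to -99 bp from the first TSS, and in control replicate 2 it lay at -637 bp from the second, where negative distances are upstream. In 4xIOP replicate 1, peaks called at a local background like that of Egr1 in the other lists held at least 20 fragments (9.95 times the genome mean).

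Egr1 had the highest median local background of the 8 genes with a promoter peak, although Nr4a1 was above it in control replicate 2 and 4xIOP replicate 3 and Ier2 in control replicate 2. The local background, the mean over 10000 bp around the summit, was 6.47, 3.72 and 8.88 times the genome mean in control and, for 4xIOP replicates 2 and 3, 5.25 and 4.05 times. These are high values, with a median percentile of 94.8 among marked coding promoters. Egr1 also had 2 intergenic regions called in all 6 lists, at -4.48 kb and -9.77 kb from the first TSS, and one more at -18.98 kb, in an intron of Reep2 near a TSS of that gene. The region at -4.48 kb (chromosome 18, 34854916 to 34856079) held 44, 36 and 66 fragments in control and 37, 33 and 25 in 4xIOP. The groups overlapped, and the median-centred log2 difference, 4xIOP minus control, was -0.09 ± 0.18 (SE). It was 0.10 ± 0.22 for the region at -9.77 kb and 0.20 ± 0.17 for that at -18.98 kb.

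Egr2, which controls myelination in Schwann cells and is inducible in neurons, had no peak within 2.5 kb of any of its 3 TSS (ENSMUSG00000037868.15, chromosome 10, 67535475 to 67542188, plus strand). The sole region of its locus (67548225 to 67549886) lay 10.39 kb beyond its nearest TSS, within 2.5 kb of a TSS of the neighbour Ado, and was called in all 6 lists with 30, 42 and 73 fragments in control and 32, 28 and 28 in 4xIOP. Egr4 (ENSMUSG00000071341.4, chromosome 6, 85511121 to 85513589, minus strand) was alike: its promoter held no peak, and the sole region of the locus, in an exon of Fbxo41 near a TSS of that gene, had 13, 13 and 15 fragments in 4xIOP, 16 and 33 in control replicates 1 and 3, and no peak in control replicate 2. The called peaks near both genes thus lay at promoters of neighbours, and acetylation too weak to be called is not in the lists.

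Egr3 (ENSMUSG00000033730.4, chromosome 14, 70077203 to 70082614, plus strand), which is needed for muscle spindle development, had no peak at its TSS. A region around -2.21 kb (70074573 to 70075913, intergenic) held 16 and 36 fragments in control and 17 and 19 in 4xIOP, in replicates 1 and 3 of each group, and neither replicate 2 had a peak. The distance lies near the edge of the promoter window. With a promoter window of 1 kb Egr3 was marked in 0 lists. A region 22.53 kb beyond the TSS at Bin3 was called in all 6 lists.

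**Figure D2:**
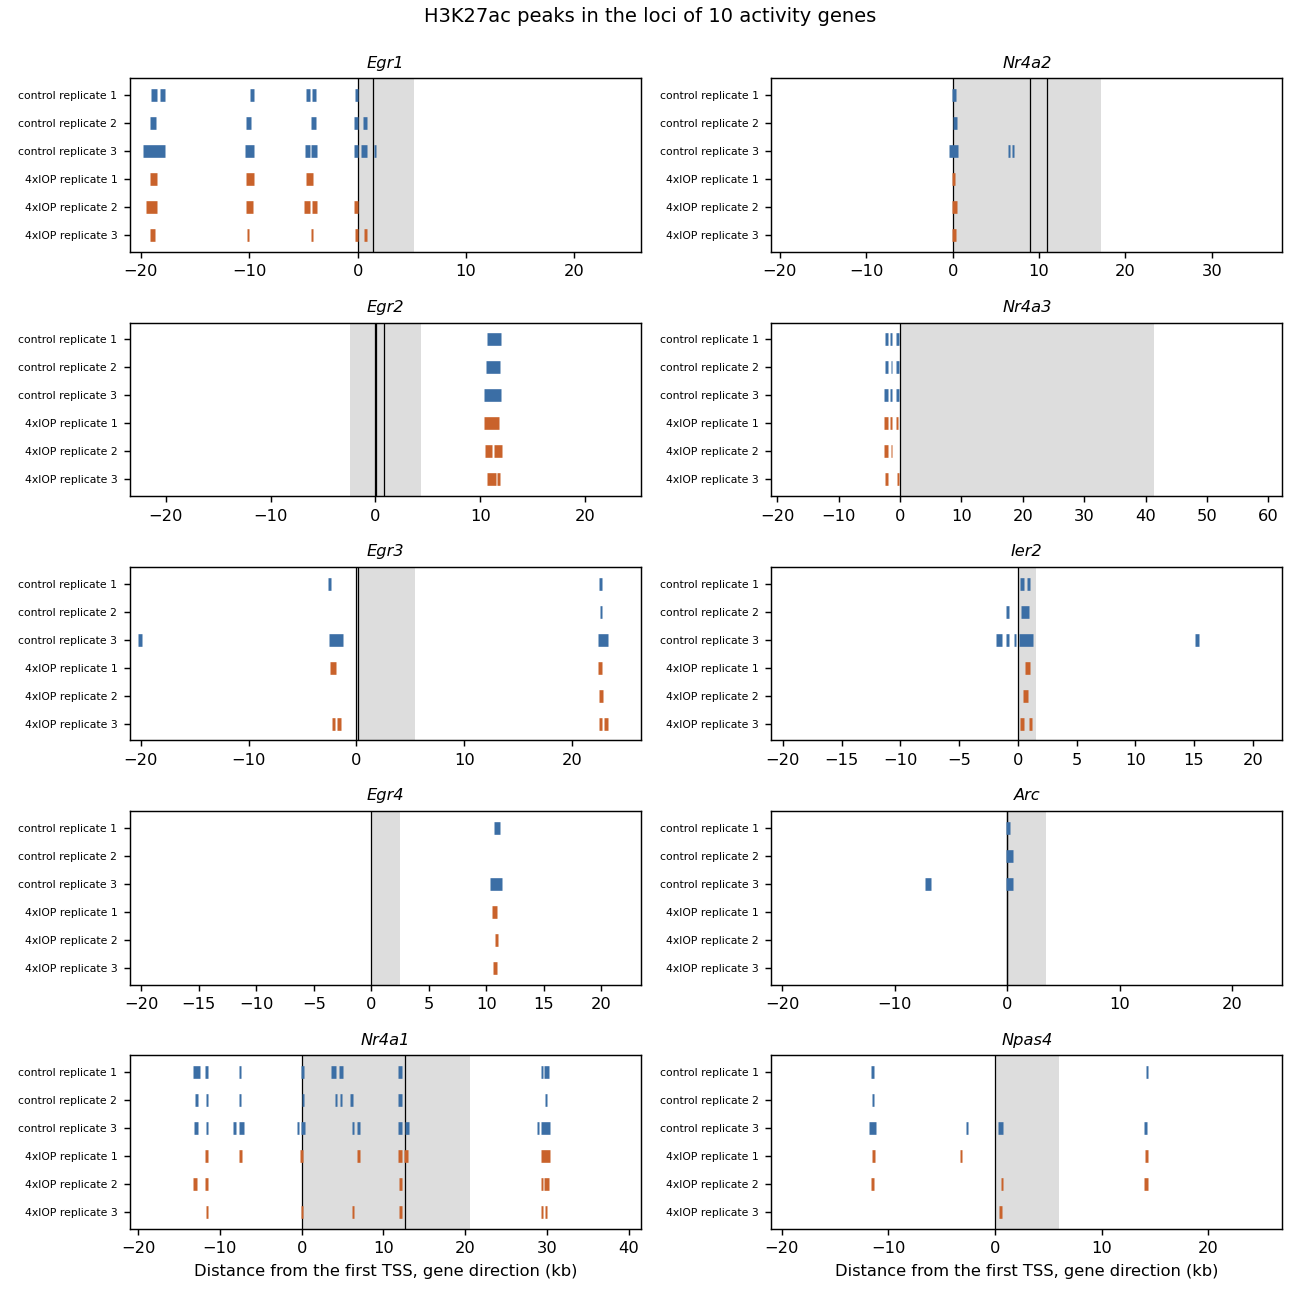
Peaks of each list (rows, blue for control and orange for 4xIOP) by distance in kb from the first TSS in the direction of the gene; grey marks the gene body and black lines mark TSS. Egr2 and Egr4 show peaks only beyond the gene, while Nr4a1 shows 5 to 12 peaks per list across its locus.

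The NR4A receptors bind DNA without a known ligand and are induced in neurons by depolarisation and cAMP. Nr4a1 (ENSMUSG00000023034.7, chromosome 15, 101254269 to 101274795, plus strand) carried 14 of the 43 merged regions of the 10 loci, the most of any gene. Its leading promoter peak held 63, 50 and 89 fragments in control and 37, 39 and 48 in 4xIOP. All control values lay above all 4xIOP values as raw counts, but after division by the genome mean control replicate 2 (14.8) was the lowest of the 6 lists and the groups overlapped. In 5 lists the leading summit lay at -647 to -481 bp from the second TSS, in an intron of the longer transcript, and in control replicate 3 it lay 64 bp after the first TSS. The printed 250 bases before the second TSS were under a peak in 1 list only, over 72 bases in 4xIOP replicate 1.

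Away from the TSS of Nr4a1, 4 regions were called in at least 3 lists. The region at -11.62 kb (101242444 to 101242837) was called in all 6 lists with 47, 46 and 39 fragments in control and 38, 28 and 24 in 4xIOP, and its log2 difference was -0.07 ± 0.27 (SE). Regions at -13.04 kb and -7.55 kb were each called in 4 lists, all 3 controls among them, and the intronic region at 6.26 kb in 3. Regions at 4.145 kb and 4.785 kb, within the gene, were called in control replicates 1 and 2 alone. The first held 56 and 57 fragments, and the second 67 and 69, more than the leading promoter peak in the same lists. The region of the locus with the most fragments in all lists together lay 17.30 kb after the second TSS at the promoter of Atg101, with 56, 59 and 79 fragments in control and 46, 50 and 45 in 4xIOP. Its groups did not overlap as raw counts, and its log2 difference was 0.06 ± 0.18 (SE), so the direction of the raw counts did not hold after scaling and centring.

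Nr4a2 (ENSMUSG00000026826.13, chromosome 2, 57106830 to 57124003, minus strand), required for midbrain dopamine neurons, was marked in a different way. Its promoter peak held 34, 20 and 38 fragments in control and 20, 20 and 20 in 4xIOP. These are low values, with a median signal percentile of 18.4 among marked promoters, yet the deposited fold enrichment was at a median percentile of 71.8. The local background was 1.00 to 1.55 times the genome mean, so the peak stood on surroundings near the genome mean. The locus held this region and 2 others, which were called in control replicate 3 alone. The summit lay 95 to 157 bp after the TSS. Of the printed 250 bases, 67, 0 and 250 were under the peak in control and 95, 61 and 65 in 4xIOP.

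Nr4a3 (ENSMUSG00000028341.9, chromosome 4, 48045153 to 48086447, plus strand) had its leading summit at -2099 to -2068 bp from the TSS in all 6 lists. Few promoters are of this kind: the leading summit was over 2 kb from the nearest TSS at 1.87% to 2.47% of marked promoters per list. Smaller peaks at -1.43 kb and -0.40 kb were called in 5 lists each. With a promoter window of 1 kb Nr4a3 kept a peak in 3 control lists and in 2 of 4xIOP, and the peak at -0.40 kb held 33, 28 and 71 fragments in control and 28 and 22 in 4xIOP replicates 1 and 3, fewer than the leading peak of Nr4a1 in each of these lists. The gene body of 41295 bp and the 20 kb beyond it held no peak.

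Ier2 (ENSMUSG00000053560.4, chromosome 8, 84661331 to 84662852, minus strand), a single-exon gene for a nuclear protein, held 35, 38 and 63 fragments at its leading peak in control and 29, 28 and 30 in 4xIOP. All 3 control counts lay above all 4xIOP counts, and relative to the list median promoter they overlapped, with 0.971 ± 0.0741 in control and 0.921 ± 0.0991 in 4xIOP (SD, n = 3). Its fold enrichment was at a median percentile of 2.08, since the surrounding 10000 bp had 3.55 to 7.89 times the genome mean. With peaks of −log10 q of at least 5, Ier2 was marked in 3 control lists and 0 4xIOP lists, as were 0.451% of all coding genes (99 genes), and 0% had the opposite pattern. When each list was cut to its strongest peaks, equal in number, it was marked in 3 and 1. Control replicates 1 and 2 carry the name of 4xIOP, so read by list name Ier2 would be marked in lists of both groups at either setting.

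Arc (ENSMUSG00000022602.14, chromosome 15, 74669083 to 74672570, minus strand), which removes AMPA receptors from synapses, was the sole gene of the 10 with a promoter peak in every control list and none in 4xIOP. Of all coding genes, 0.36% (79 genes) were marked in this way and 0% in the opposite way. The counts were 29 and 10 with equal numbers of strongest peaks and 82 and 36 without control replicate 3. Without any 1 of the other lists they were 138 to 277 and 0 to 3, where a group of 2 lists is easier to fill or to leave empty. Its peak, 48 to 304 bp after the TSS, held 13 fragments (95% Poisson interval 6.92 to 22.2), 21 (13.0 to 32.1) and 25 (16.2 to 36.9) in control replicates 1 to 3. At a like local background the least fragments of any called peak were 10, 11 and 12 in 4xIOP replicates 1 to 3, or 4.97, 5.18 and 4.68 times the genome mean. On that scale Arc was at 5.93, 6.21 and 10.1 in control, so replicates 1 and 2 lay near that level and replicate 3 lay further above it. The lists give no signal where no peak was called, so the difference in signal at Arc was not tested. With equal numbers of strongest peaks Arc was marked in 1 control list, and with −log10 q of at least 5 in 2. Control replicate 3 had the peak and 4xIOP replicate 3 did not. Control replicates 1 and 2 carry the name of 4xIOP, so read by list name the Arc peak would be in lists of both groups.

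Npas4 (ENSMUSG00000045903.9, chromosome 19, 4984355 to 4990316, minus strand), a factor induced by calcium entry in neurons, had a promoter peak in control replicate 3 (50 fragments) and in 4xIOP replicates 2 and 3 (24 and 18). The summits lay 417 to 613 bp after the TSS. An intergenic region at -11.44 kb was called in 5 lists, with 20, 20 and 33 fragments in control and 16 and 17 in 4xIOP replicates 1 and 2. A second, 14.15 kb after the TSS, was called in 4 lists with 14 to 20 fragments.

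The deposited fold enrichment and the number of fragments ranked the 8 genes with a promoter peak differently. Fold divides the summit by the local background, and the local background of Egr1, Nr4a1 and Ier2 was at a median percentile of 94.8, 92.5 and 92.0. By fragments these 3 promoters were at a median percentile of 67.6, 80.4 and 55.6, and by fold at 6.10, 19.1 and 2.08. Nr4a3 was high on all 3 measures (92.6 by fragments, 77.2 by fold, 81.3 by local background), and Nr4a2, Egr3 and Arc had local backgrounds at 7.96, 34.4 and 20.8. By fold these were at 71.8, 14.1 and 24.9, so Egr3 and Arc had a low fold on a low background. Npas4 was at 65.4 by local background and 15.4 by fold. Of all 8669 promoters marked in 6 lists, 1036 combined a local background above percentile 75 with a fold below percentile 25 (11.95%). Among 23 other inducible genes marked in 6 lists, 14 did so (60.9%), as did 2 of the 4 listed genes marked in 6 lists.

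**Figure D3:**
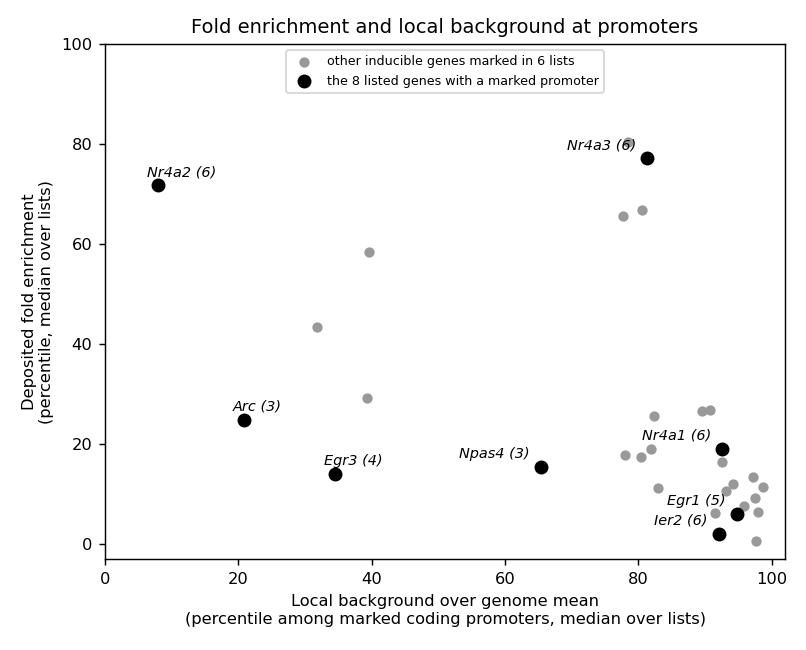
Percentile of the deposited fold enrichment against that of the local background, as medians over the lists with a peak, for the 8 listed genes with a marked promoter (black, number of lists in brackets) and other inducible genes marked in 6 lists (grey). Egr1, Nr4a1 and Ier2 sit with most grey points at high background and low fold, while Nr4a2 sits at percentiles 7.96 and 71.8.

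Differences between 4xIOP and control were tested by limma on the median-centred log2 signal, with adjustment over all 8669 promoters marked in 6 lists. None of the 4 listed genes in the fit passed the threshold. The difference, 4xIOP minus control, was -0.16 ± 0.18 for Nr4a1, -0.05 ± 0.22 for Nr4a2, -0.0008 ± 0.17 for Nr4a3 and -0.08 ± 0.17 for Ier2 (log2, SE). The adjusted p was 0.998 for Nr4a1, Nr4a2 and Ier2 and 1.00 for Nr4a3. Without centring on the list median the differences were -0.43, -0.32, -0.27 and -0.35 in the same order of genes, beside a median of -0.27 over all promoters. Across all promoters 0% were called (268 of 8669 had an unadjusted limma p under 0.05). The groups did not overlap at 4.38% of promoters with 4xIOP lower and 4.15% with 4xIOP higher, and they overlapped at all 4 genes. In control replicate 3 and 4xIOP replicate 3 alone, all 4 differences were positive, at 0.40 for Nr4a1, 0.37 for Nr4a2, 0.11 for Nr4a3 and 0.22 for Ier2, with no test possible. Egr1 and Egr3 could be fitted when a peak was required in 2 lists of each group and lists without a peak were dropped, and their differences were 0.06 ± 0.19 and 0.25 ± 0.27 (log2, SE, limma adjusted p = 0.998 for both).

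**Figure D4:**
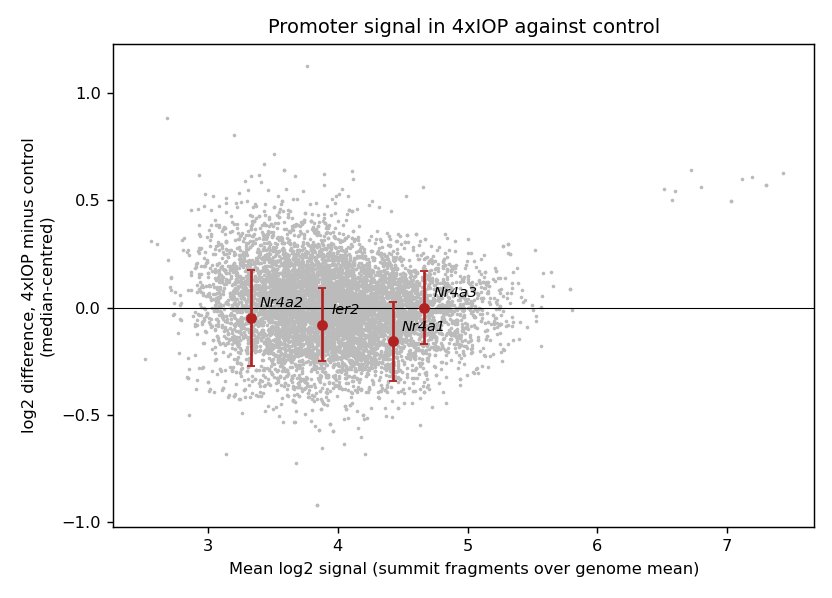
Median-centred log2 difference, 4xIOP minus control, against the mean log2 signal for the 8669 promoters marked in 6 lists (grey); red points are the 4 listed genes with bars of 1 SE. The red points lie between -0.16 and -0.0008, inside the grey cloud.

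Of the 43 merged regions in the 10 loci, 21 lay at promoters of the listed genes, 8 near a TSS of another gene and 14 away from any TSS. In all 6 lists 11 were called (25.6%, against 26.4% of all 39950 regions), and 13 were called in 1 list (30.2%, against 37.5%), of which 12 in control replicate 3. By limma over 10529 regions, 0% were called (290 had an unadjusted p under 0.05, and 0 of the 11 in the loci). Of these 11, 3 were higher in 4xIOP and the median log2 difference was -0.069, beside 5428 higher and a median of 0.0063 over all 10529 regions. The control lists alone shared 1 region that no 4xIOP list had, the Arc promoter, and the opposite count was 0. Of all regions, 1.05% were control-only in this sense and 0.015% were 4xIOP-only.

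The mean length under peaks was lower in 4xIOP than in control at each of the 10 loci, and the difference summed over the loci shrank without control replicate 3. The share of all coding loci with a lower mean is not given, so the count is no result about these genes. All peaks together covered 10.8, 8.92 and 20.1 Mb in control and 10.2, 10.35 and 6.66 Mb in 4xIOP. Summed over the 10 loci the length under peaks was 12.2, 10.1 and 23.8 kb in control and 11.1, 9.81 and 8.16 kb in 4xIOP. The difference of means was -5.66 kb, and -1.46 kb without control replicate 3. Per Mb of all peaks of the list the sums were 1.15 ± 0.0298 kb in control and 1.09 ± 0.139 kb in 4xIOP (SD, n = 3), which overlap. By locus, the groups did not overlap at Ier2 (0.679, 1.056 and 2.467 kb in control, 0.387, 0.405 and 0.6 kb in 4xIOP) and Arc (0.671 ± 0.419 kb and 0 kb), each with an exact permutation p of 0.1, two-sided and the smallest that 3 lists against 3 allow. Across 15583 coding loci with a peak, the groups were apart with 4xIOP lower at 10.3% and with 4xIOP higher at 0.0449%. At the other 8 loci the exact permutation p was 0.2 to 0.9. Without control replicate 3 the difference turned positive at Egr3, Egr4 and Npas4.

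**Figure D5:**
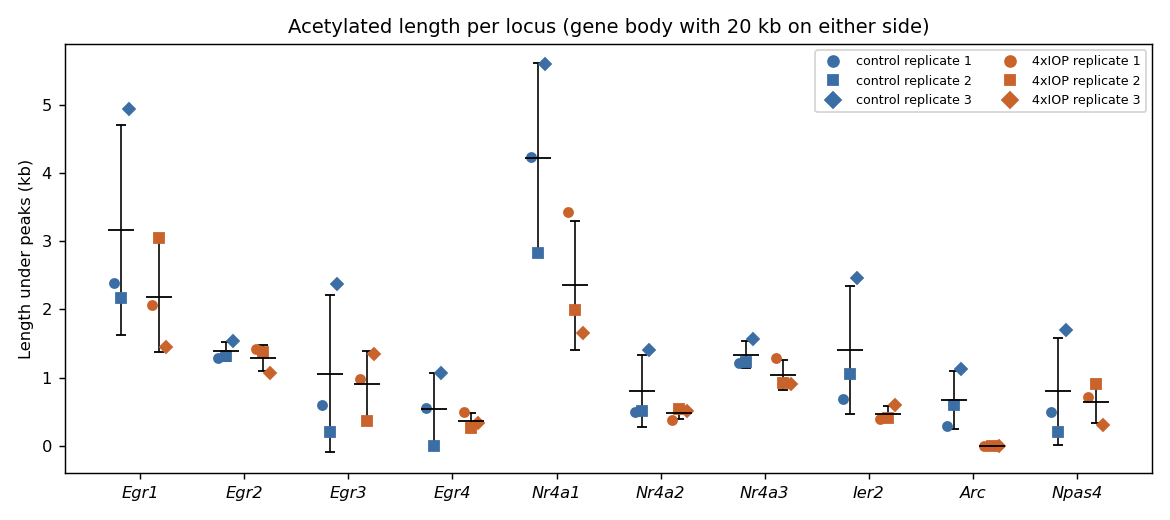
Length under peaks in kb over the gene body with 20 kb on either side, by gene; symbols are lists, horizontal lines the group means and bars 1 SD (n = 3). Control replicate 3 is the highest control list at each locus, and Arc is at 0 in the 3 4xIOP lists.

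Other inducible genes and the regulators of this program were read from the same fit. Of 43 other inducible genes, 31, 30 and 37 were marked in control and 30, 26 and 31 in 4xIOP, 23 were marked in all lists and 6 in none (Fosl1, Klf4, Nrn1, Ptgs2, Amigo3 and Cyr61). Among the 23, 0 were called in either direction, 11 were higher in 4xIOP, and the median log2 difference was -0.0093, beside -0.0053 over all promoters tested, of which 4236 were higher. Jund, Fos and Junb, partners in the AP-1 factor, had the highest geometric mean signal over the 6 lists, at 32.8, 28.6 and 28.3 times the genome mean. The 3 lowest were Dusp6 (9.31), Plk2 (10.0) and Ier5 (12.3). The largest differences in either direction in the list were those of Atf3, a stress-induced factor (0.64 ± 0.19), and Fosb, an AP-1 subunit (-0.51 ± 0.19), chosen after their values were seen, and both had a limma adjusted p of 0.998.

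Of 28 regulators and partners, 18 were marked in all lists and 0 in none, and 0 of the 18 were called. Their median log2 difference was -0.085, with 7 higher in 4xIOP. Ep300, which encodes the p300 acetyltransferase, had the highest geometric mean signal (39.8), followed by Crtc3, a CREB coactivator (33.7), and Mef2a, a factor that binds activity-dependent promoters (29.8). The lowest were Crtc1, another CREB coactivator (10.4), and Mkl1, a cofactor of serum response factor (12.8). Mef2c, a factor of the same family, had a promoter peak in every control list and none in 4xIOP, with 9.76 to 26.7 times the genome mean in control. It is 1 of the 79 coding genes of this kind (0.36%, against 0% the other way), counts that change with the settings as given for Arc. The calling level at its local background and its marking under other settings are not given. Read by list name, the Mef2c peaks would also be in lists of both groups. Srf and Creb1 themselves were marked in all 6 lists, at 16.4 to 43.7 and 19.1 to 49.4 times the genome mean.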

How the data were processed

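H3K27ac ChIP-seq of bulk mouse retina was analysed from 1 deposited narrowPeak list per sample (3 control, 3 4xIOP). Per the labels, the build was mm10, and the submitters' processing notes name STAR 2.7.8a, MACS2, HOMER, edgeR and bedtools 2.29.2 without roles. For each peak the authors deposited the fold enrichment at the summit (a ratio of fragments to the background nearby), its −log10 p-value and −log10 q-value and an integer score, which was not used.

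Summit fragments and local background were recovered from fold and p under a Poisson model, with an error under 0.001 on the −log10 scale in 100% of peaks. Each list's lowest background served as its genome mean. The lists hold no read total per sample. Only the autosomes, X and Y entered. A promoter was the 2.5 kb before and after a transcription start site of the GENCODE vM21 basic annotation, and the gene body with 20 kb on either side was the locus. Overlap of 1 bp sufficed. Signal was log2 summit fragments over the genome mean, centred on the list median. It was tested with limma 3.58.1 in R 4.3.3 (empirical Bayes with trend, two-sided, Benjamini-Hochberg adjustment, threshold 0.05), over 8669 promoters and 10529 merged regions found in all 6 lists. The step was tested on simulated data. Locus lengths were compared by the exact permutation test. Intervals cover counting error only.

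Each of the 10 genes was named with each list's value, and of the other lists the 3 highest and 3 lowest signals among genes marked in all lists, genes marked in none, and genes called or marked in 1 group only. One gene that this rule names is not reported here. Older symbols were matched through RefSeq synonyms. The genes, lists and tests were chosen with earlier results of these data known. Nothing in the labels says that the 6 samples are separate animals, so p-values measure the spread between these samples. Alternatives were other peak thresholds, windows, signal measures, scalings, covariates, pairing and leaving out each list.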

Additional observations from a re-analysis of the deposited data

How the results depend on the processing

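The counts of promoters and of regions called by limma were 0 in both directions under every alternative run. The promoters with an unadjusted p under 0.05 ranged from 2 without centring to 635 without 4xIOP replicate 3, and the regions from 4 to 1044 under the same settings. Without centring the median difference over all promoters was -0.27 on the log2 scale. The difference in listed genes with a marked promoter was -1, it was -2.33 with −log10 q of at least 5, with -1.5 to -0.5 on leaving out single lists. The difference in acetylated length over the loci was -5.66 kb, with -8.30 (without control replicate 2) to -1.46 kb (without control replicate 3) on leaving out single lists. It was -15.6 kb with the lists whose name and label give the same group. These are the lists with the most and the fewest peaks. Per Mb of all peaks they had 1.18 kb in control replicate 3 and 1.22 kb in 4xIOP replicate 3, the opposite direction. Promoter signal differences changed sign (log2, except for the rank scores) in control replicate 3 and 4xIOP replicate 3 alone, chosen for signal after seeing the data (0.40 for Nr4a1, 0.37 for Nr4a2, 0.11 for Nr4a3, 0.22 for Ier2). They did so without control replicate 1 (0.013 for Nr4a1, 0.25 for Nr4a2, 0.098 for Nr4a3), without 4xIOP replicate 1 (0.019 for Nr4a2), without 4xIOP replicate 2 (0.15 for Nr4a3) and without 4xIOP replicate 3 (0.025 for Nr4a3). Leaving out single lists gave -0.29 to 0.013 for Nr4a1, -0.20 to 0.25 for Nr4a2, -0.11 to 0.15 for Nr4a3 and -0.14 to -0.011 for Ier2. The value of Nr4a3, near 0, was also positive with −log10 q of at least 5 (0.0011), equal numbers of strongest peaks (0.0064) and normal scores of fold (0.038) or fragments (0.046), as was that of Ier2 with normal scores of fold (0.085). The lists give no fragment length, so whether the shortest peak of a list was over 200 bp served as a stand-in for it. With this class as a covariate the difference of Nr4a2 was -0.16. The cause was not tested. With the replicate number as a block, 0 promoters and 0 regions were called and no direction changed, the difference in marked genes stayed at -1 and that in length at -5.66 kb. Deviations of same-numbered samples had correlations of -0.06, 0.02 and -0.02. Such values cannot show whether these samples are eyes of the same mouse, and the labels do not say so. The main tests therefore left the samples unpaired. At a local background like that of Arc, the least fragments of a called peak were 10 to 12 in 4xIOP. The lists whose name and label give the same group are 1 per group, so no count of calls could be fitted for them. Counts of promoters marked in 1 group only with single lists left out were also chosen after seeing the data.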
